A study of Mus musculus with 24 samples.

Results

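The genes described here are 9 genes of haemostasis and fibrinolysis that endothelial cells are known to express: F3 (tissue factor), Tfpi, Tfpi2, Thbd (thrombomodulin), Procr (the endothelial protein C receptor), Plat (tissue plasminogen activator), Plau (urokinase), Plaur (the urokinase receptor) and Vwf (von Willebrand factor). They were chosen by name, through the accession that the array files give for each probe, and make up 9 of the 18539 gene symbols and 16 of the 41174 probes on the array. For 6 of the genes several probes were present (13 probes in all), and the brightest one, which was the same probe in both tissues, stands for the gene unless another is named.

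The 24 arrays, 3 for each of 8 groups, were Agilent whole-genome mouse arrays of a single colour and read RNA from live CD105+/CD45- cells sorted out of the aorta and out of leg skeletal muscle. The mice were male galectin-3-deficient animals (B6.Cg-Lgals3tm1Poi/J, KO) and wild-type C57BL/6J animals (WT). From 8 weeks of age they ate a high-fat diet with 60% of calories from fat (HFD) or chow with 12% for 8 weeks. In each of 3 independent experiments the tissue of 3 to 4 mice per strain and diet was pooled, so that 1 array reads 1 pool and both tissues of a strain, diet and experiment come from the same animals. The sort keeps any CD45- cell that carries CD105 (endoglin). The 4 groups of 1 tissue and experiment shared 1 slide, and therefore slides never hold both tissues. Per the file headers, the slides of experiment 1 were scanned in 1 session and those of experiments 2 and 3 in another. What sets experiment 1 apart cannot be told from the scan session. Chow arrays sat at slide positions 1 and 2 in experiment 1 and at 3 and 4 in experiments 2 and 3, with HFD arrays at the others.

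Tissue factor is the membrane receptor that starts the extrinsic pathway of coagulation by binding factor VIIa, and in the resting vessel wall it is known mainly from the adventitia and the smooth muscle layer. Endothelial cells oppose clotting with tissue factor pathway inhibitor, with thrombomodulin and the protein C receptor, which together let thrombin activate protein C, and with tissue plasminogen activator, which turns plasminogen into plasmin. They also store von Willebrand factor, the adhesive protein that binds platelets and carries factor VIII.

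All 10 endothelial markers examined (Pecam1, Cdh5, Tek, Tie1, Kdr, Eng, Esam, Emcn, Cldn5 and Erg) were well above background on every array. All 10 were lower in aorta than in muscle, by 0.90 to 2.05 on the log2 scale, and their summed scaled signal was 89.6 to 310.0 on the aortic arrays and 322 to 452 on the muscle arrays. All 5 fibroblast markers (Col1a1, Col3a1, Dcn, Lum and Pdgfra) were also well above background on every array, with a summed signal of 208 to 470.0 in aorta and 17.8 to 166 in muscle. The 5 markers of skeletal muscle fibres were higher in muscle (summed signal 13.2 to 84.7 against 0.821 to 4.30), and the 5 adipocyte markers were higher in aorta (3.25 to 258 against 1.31 to 60.4). In RNA from such mixed cells, fewer cells of a type and less RNA per cell cannot be told apart. At 16 probes that separate the strains in experiments 2 and 3 (0 for WT, 1 for KO), 4 arrays, those of HFD in experiment 1, had positions of 0.26 to 0.52 and so matched neither strain. The other 20 arrays lay at -0.10 to 0.13 (WT) or 0.89 to 1.08 (KO), which for experiments 2 and 3 follows from the choice of probes. The chow arrays of experiment 1 lay at 0.01 and 0.13 (WT) and at 0.89 and 0.92 (KO). Tissue differences and counts of strain pairs are given with and without the 4 HFD arrays of experiment 1. Diet differences over both strains are given with and without experiment 1. This holds only for the brightest probes of the genes of haemostasis and fibrinolysis named at the start. Differences of other probes, of the markers and of the wider gene list below are given with all arrays only. The 1 Lgals3 probe was higher on the KO array in 11 of 12 pairs (median 1.30 on the log2 scale), and since its place relative to the deleted exons is not given in the sources used here, it checks no label.

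Values are the log2 of an array's processed signal divided by its 75th percentile, so that 0 is the 75th percentile of an array's spots, and levels are compared only for the same probe. A difference is called when its adjusted p in limma lies below 0.05, with Benjamini-Hochberg adjustment over all probes tested.

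Promoter sequence is shown for F3 and Procr, 2 of the genes found higher in aorta, for which RefSeq's table for GRCm38.p6 held a single start site. The table held windows for 5 of the 9 genes (F3, Tfpi, Tfpi2, Procr and Plaur). Each line gives the 250 bases before the start of the transcript, with capitals marking matches to an AP-1 motif (TGANTCA, where N is any base) and to a GC box (GGGCGG), searched on both strands.
F3 (chr3:121723287-121723536, plus strand): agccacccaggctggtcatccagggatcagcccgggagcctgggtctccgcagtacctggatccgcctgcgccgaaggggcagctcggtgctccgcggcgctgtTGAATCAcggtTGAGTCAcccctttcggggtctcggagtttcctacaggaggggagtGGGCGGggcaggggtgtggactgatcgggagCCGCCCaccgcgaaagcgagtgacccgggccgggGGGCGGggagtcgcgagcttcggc
Procr (chr2:155750967-155751216, plus strand): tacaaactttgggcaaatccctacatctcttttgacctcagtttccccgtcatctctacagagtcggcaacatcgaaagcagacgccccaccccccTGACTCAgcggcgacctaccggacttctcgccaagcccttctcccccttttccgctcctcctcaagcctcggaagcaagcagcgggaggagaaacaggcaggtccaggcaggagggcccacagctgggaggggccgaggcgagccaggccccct
The F3 window held 2 AP-1 matches, which begin 146 and 135 bases before the start, and 3 GC boxes, at 89, 58 and 24 bases. The Procr window held 1 AP-1 match, at 154 bases, and no GC box. Over all 32851 windows of the table, 6.75% held the AP-1 letters and 32.7% the GC box, and no motif overlapped another in the lines shown. These matches are letters in a sequence and were not read as sites of binding.

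The comparison of the tissues asked how these genes differ between the endothelium of a large artery and that of muscle. Of the 9 genes, 4 were called higher in aorta (F3, Tfpi, Plat and Procr) and none was called lower. Over all 27387 probes tested in both tissues, 16% were called higher in aorta and 30.1% lower, 46.1% in either direction. The median of the 9 genes was 0.29 against -0.27 over all probes, and with the deposited log2 table, which scales each tissue separately, the median over all probes was -0.01 and 58.9% of the calls were higher in aorta in place of 34.6%. F3, Tfpi and Plat had every one of their 12 aortic arrays above all 12 muscle arrays, as 3.55% of all probes did.

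**Figure D1:**
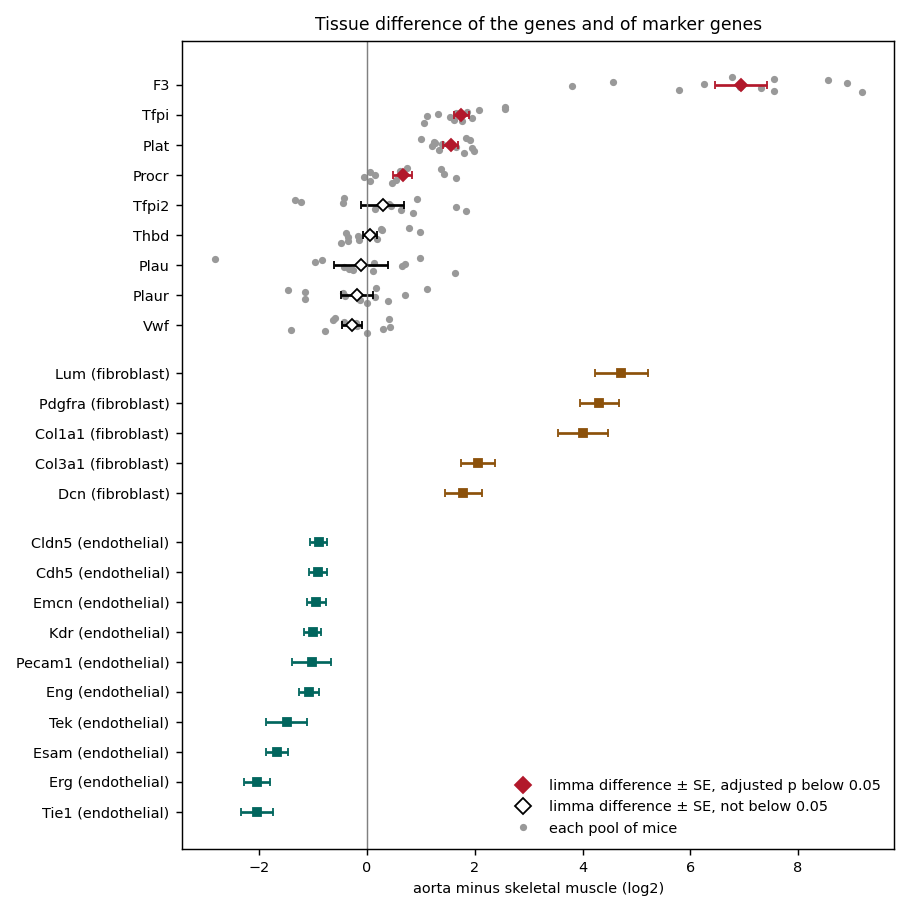
Aorta minus skeletal muscle on the log2 scale (x axis) for the 9 genes, ordered by size, with 5 fibroblast and 10 endothelial markers below. Diamonds (genes) and squares (brown for fibroblast, teal for endothelial markers) with bars are limma differences ± SE (filled where the adjusted p is below 0.05), and grey points are the differences of single pools of mice. F3 lies at 6.94, beyond the fibroblast markers (1.79 to 4.72), while the 10 endothelial markers lie below 0.

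F3, the initiator of the extrinsic pathway, showed the largest tissue difference of the 9 genes. In aorta its level was 4.73, 2.72 and 4.80 on the WT chow arrays of experiments 1, 2 and 3 and 4.46, 4.98 and 5.08 on the WT HFD arrays. On the aortic KO arrays it was 2.71, 3.22 and 4.22 on chow and 4.84, 4.81 and 4.76 on HFD. The 6 aortic HFD arrays thus lay close together, between 4.46 and 5.08, and the chow arrays spread further down.

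In muscle the F3 level was -2.05, -4.83 and -3.75 on the WT chow arrays and -0.10, -3.94 and -1.17 on the WT HFD arrays. On the muscle KO arrays it was -1.10, -3.71 and -3.10 on chow and -0.95, -2.75 and -4.43 on HFD. Every muscle array was therefore below the lowest aortic one, although all 12 were still well above background. Among the muscle arrays, experiment 1 gave the highest level in all 4 groups.

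F3 was higher in aorta by 6.94 ± 0.48 (SE; adjusted p = 3.0e-09), a 122-fold difference, and by 3.81 to 9.19 in each of the 12 pools of mice. Its other probe gave 7.20 ± 0.52 (adjusted p = 4.4e-09). Without the 4 HFD arrays of experiment 1 the difference was 7.40 (adjusted p = 6.3e-08), and with the slide as a random block it was 6.94 (adjusted p = 1.8e-07). The tissue difference of F3 was larger than that of any of the 5 fibroblast markers, which ran from 1.79 for Dcn to 4.72 for Lum, and their part in it was not tested. In the order of the 8 group means of F3 (range 8.38), the gap between the lowest aortic group, KO chow at 3.38, and the highest muscle group, WT HFD at -1.74, was the only one of 7 that exceeded the summed SDs of its neighbours.

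**Figure D2:**
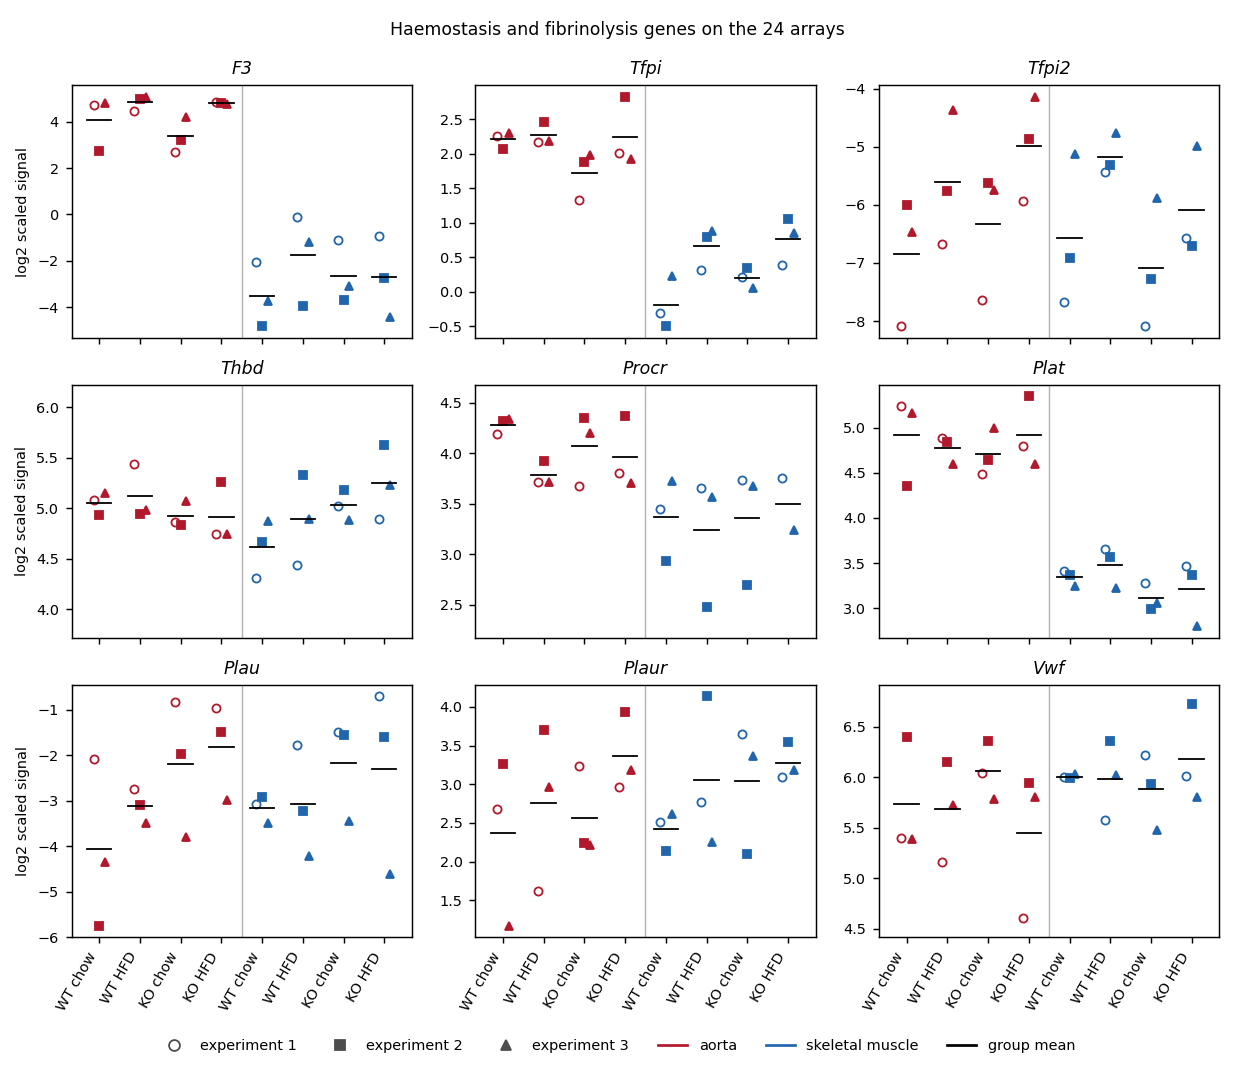
Level of each gene (log2 scaled signal, y axes of different ranges) in the 8 groups, with 1 point per array shaped by experiment and a black line at the group mean. F3, Tfpi and Plat separate the aortic arrays (red) from the muscle arrays (blue), whereas the ranges of Thbd and Vwf overlap between tissues.

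Tissue factor pathway inhibitor, Tfpi, which blocks the complex of tissue factor and factor VIIa, was the other member of this arm with a tissue difference. Its aortic level was 2.26, 2.07 and 2.30 on WT chow and 2.17, 2.46 and 2.19 on WT HFD arrays. On KO arrays it was 1.33, 1.88 and 1.99 on chow and 2.01, 2.83 and 1.92 on HFD. The aortic arrays of Tfpi varied little, with group SDs of 0.12 to 0.50.

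In muscle, Tfpi read -0.30, -0.50 and 0.23 on WT chow and 0.31, 0.80 and 0.88 on WT HFD arrays. On KO arrays it read 0.22, 0.34 and 0.05 on chow and 0.39, 1.06 and 0.86 on HFD. The WT HFD arrays of muscle were thus all above the WT chow arrays, and the KO HFD arrays all above the KO chow arrays. Tfpi was higher in aorta by 1.75 ± 0.14 (SE; adjusted p = 1.8e-08), which is 3.37-fold, and in all 12 pools, by 1.05 to 2.57. Its other probes gave 2.57 ± 0.27 and 1.45 ± 0.35, both called, and without the HFD arrays of experiment 1 the brightest probe gave 1.71 (adjusted p = 1.2e-06). The dimmest of the probes was higher in aorta in 10 of 12 pools.

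Tfpi2, a Kunitz-type inhibitor of plasmin and related proteases, was at the edge of detection. It was well above background on 7 of 12 aortic and 5 of 12 muscle arrays, and on none of the 3 muscle arrays of KO mice on chow. Its level ran from -8.09 to -4.14 in aorta and from -8.09 to -4.76 in muscle, so that the tissues overlapped over most of their range. The tissue difference of 0.29 ± 0.40 (adjusted p = 0.57) has a 95% confidence interval of -0.55 to 1.12. The probe was tested only because 1 group, muscle WT HFD, had it well above background on all 3 arrays.

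Thrombomodulin, Thbd, the thrombin receptor of the endothelial surface, had the smallest range of group means of the 9 genes. In aorta it read 4.74 to 5.44 (median 4.96) and in muscle 4.31 to 5.63 (median 4.89), and the tissues overlapped. The difference was 0.06 ± 0.13 (adjusted p = 0.75; 95% confidence interval -0.22 to 0.33), and 6 of 12 pools were higher in aorta. These 8 group means spanned 0.63, and none of the 7 gaps between neighbouring groups exceeded their summed SDs. With quantile normalization and with the deposited table, which moved the median of all probes, the difference was 0.26 and 0.32, still not called (adjusted p = 0.078 and 0.062).

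Procr, which presents protein C to the complex of thrombin and thrombomodulin, was modestly higher in aorta. Its level was 3.67 to 4.37 (median 4.05) on the 12 aortic arrays and 2.48 to 3.75 (median 3.57) on 11 muscle arrays, the KO HFD array of experiment 2 having an outlier spot that was left out. The ranges touched only between 3.67 and 3.75. The difference was 0.66 ± 0.18 (adjusted p = 0.0063), 1.58-fold, and 10 of 11 pools were higher in aorta. The call was lost without experiment 2, at 0.32 (adjusted p = 0.13), and without experiment 3, at 0.74 (adjusted p = 0.053), while without experiment 1 it was 0.92 (adjusted p = 0.023). Without the HFD arrays of experiment 1 the difference of Procr was 0.80 (adjusted p = 0.011). The 3 lowest muscle values, 2.48, 2.69 and 2.93, all came from experiment 2.

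Tissue plasminogen activator, Plat, separated the tissues completely. Its aortic level was 5.24, 4.36 and 5.16 on WT chow and 4.89, 4.84 and 4.60 on WT HFD arrays. On the aortic KO arrays it was 4.49, 4.64 and 5.0 on chow and 4.80, 5.35 and 4.60 on HFD. The lowest aortic array, WT chow of experiment 2, was still above every muscle array.

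In muscle, Plat read 3.41, 3.37 and 3.25 on WT chow and 3.65, 3.57 and 3.22 on WT HFD arrays. On KO arrays it read 3.28, 2.99 and 3.06 on chow and 3.47, 3.37 and 2.80 on HFD. The difference of 1.55 ± 0.14 (SE; adjusted p = 4.7e-08) corresponds to 2.92-fold and was seen in all 12 pools, at 1.00 to 1.99. The other Plat probe gave 1.76 ± 0.21 (adjusted p = 1.7e-06) with overlapping ranges, and without the HFD arrays of experiment 1 Plat gave 1.60 (adjusted p = 3.1e-06).

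Urokinase, Plau, and its receptor Plaur did not differ between tissues beyond their spread. Plau ran from -5.75 to -0.84 in aorta and from -4.61 to -0.70 in muscle, and its difference was -0.12 ± 0.50 (adjusted p = 0.86; 95% confidence interval -1.17 to 0.93). Plaur ran from 1.17 to 3.93 in aorta and from 2.10 to 4.14 in muscle, with a difference of -0.19 ± 0.30 (adjusted p = 0.63; 95% confidence interval -0.81 to 0.44). Both intervals leave room for a change of close to 1 on the log2 scale. The signs of these small differences turned with the deposited table, to 0.14 and 0.08. A dim probe of Plau was well above background on none of the aortic and 4 of the muscle arrays and was not tested.

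Vwf was bright in both tissues. It read 4.61 to 6.40 (median 5.79) in aorta and 5.48 to 6.72 (median 6.00) in muscle, and the aortic arrays reached lower. The difference was -0.28 ± 0.19 (adjusted p = 0.24; 95% confidence interval -0.68 to 0.12), with 3 of 12 pools higher in aorta, and the other probe gave -0.34 ± 0.28. The 10 endothelial markers fell by 0.90 to 2.05 in the same comparison, and the summed SDs of neighbouring groups exceeded every gap in the order of the 8 Vwf means. With the deposited table and with quantile normalization the Vwf difference was -0.02 and -0.03 (adjusted p = 0.96 and 0.89), so its size depended on the scaling.

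Without the HFD arrays of experiment 1 the tissue differences of the uncalled genes were 0.45 for Tfpi2, -0.06 for Thbd, 0.09 for Plau, -0.05 for Plaur and -0.18 for Vwf, none of them called.

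The HFD was compared with chow within each strain, tissue and experiment, as the log2 ratio of the pair. Aortic and muscle pairs of a strain and experiment come from the same mice, so counts over both tissues are not of independent pairs. None of the genes was called in either strain or over both strains, in either tissue, where 8 genes were tested in aorta and 9 in muscle. Over all probes 0% were called in aorta WT, in aorta KO and in muscle WT, 0.00389% in muscle KO, 0.0309% in aorta over both strains (0.00773% higher on HFD) and 0.288% in muscle over both strains. At an unadjusted p below 0.05 there were 0 of 8 genes in aorta WT, 1 of 8 in aorta KO, 3 of 9 in muscle WT and 1 of 9 in muscle KO. Tfpi2 was 1 of the 3 in muscle WT and the 1 in muscle KO. It was tested in muscle only because the WT HFD group had it well above background on all arrays. Over all probes 5.77%, 11.3%, 12.1% and 8.49% lay below that limit. None of the genes had a ratio past 1 on the log2 scale in the same direction in all 3 experiments, in any strain and tissue, and 1.59% of probes did so in aorta WT, 2.93% in aorta KO, 1.83% in muscle WT and 0.989% in muscle KO.

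**Figure D3:**
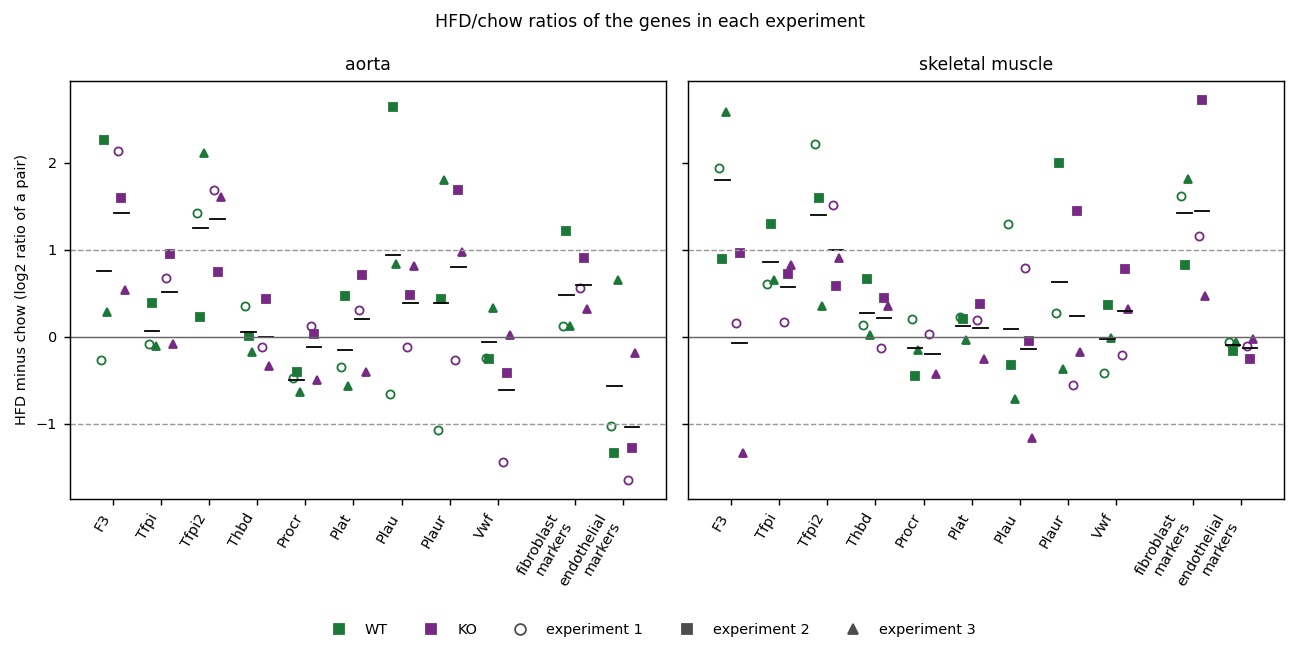
HFD minus chow (log2 ratio, y axis) of every pair of arrays for the 9 genes and for the mean of 5 fibroblast and 10 endothelial markers, in aorta (left) and muscle (right). Points are coloured by strain and shaped by experiment, black lines are the means of 3 experiments, and dashed lines mark a ratio of 1. Tfpi2, well above background on 8 of 12 HFD and 4 of 12 chow arrays, is above 0 in all 12 pairs. F3 is above 0 in 10 of 12, and Thbd stays between -0.33 and 0.66.

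The F3 ratio was -0.27, 2.26 and 0.29 in aortic WT cells in experiments 1, 2 and 3, and 2.14, 1.59 and 0.54 in aortic KO cells. The muscle pairs gave 1.94, 0.89 and 2.58 for WT, then 0.16, 0.96 and -1.33 for KO. F3 was thus higher on HFD in 10 of 12 pairs, with 1 WT pair in aorta and 1 KO pair in muscle the other way. Over both strains the difference was 1.09 ± 0.38 in aorta and 0.87 ± 0.35 in muscle (SE; adjusted p = 0.28 in both), with 95% confidence intervals of 0.18 to 2.01 and 0.05 to 1.69. The other F3 probe gave 1.32 ± 0.36 in aorta, with all 6 pairs above 0, and 0.90 ± 0.37 in muscle (adjusted p = 0.22 and 0.29). The aortic difference of F3 was 1.17 without experiment 1, 0.67 without experiment 2 and 1.43 without experiment 3, and in muscle it was 0.78 to 0.99 when each experiment was left out. In aortic WT cells the brightest probe gave 0.76 ± 0.54 and came to 0.01 without experiment 2.

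The mean ratio of the 5 fibroblast markers in the same pairs was 0.12, 1.21 and 0.13 in aortic WT cells and 0.56, 0.91 and 0.32 in aortic KO cells. The muscle pairs gave 1.62, 0.83 and 1.81 for WT, then 1.16, 2.72 and 0.47 for KO. In all 12 pairs the fibroblast markers were therefore above 0, and the order of the 3 experiments was the same as that of F3 in both strains in muscle and in aortic WT cells, but not in aortic KO cells. In muscle KO cells the fibroblast mean was 1.45 where F3 was -0.07. Pdgfra and Lum were higher on HFD in 12 of 12 pairs, as 0.949% of all probes were. Of the 6 pairs in aorta and the 6 in muscle, Col1a1 was higher in 5 and 5, Col3a1 in 3 and 6, and Dcn in 4 and 4. None of the 5 fibroblast markers was called, and their part in the F3 ratios was not tested.

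The mean ratio of the 10 endothelial markers was -1.02, -1.33 and 0.65 in aortic WT cells and -1.64, -1.28 and -0.18 in aortic KO cells. In muscle it stayed between -0.26 and -0.02. The endothelial markers of aorta were thus lower on HFD in 5 of 6 pairs, and none of the 10 was called in either tissue.

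Tfpi was higher on HFD in all 6 muscle pairs, at 0.61, 1.30 and 0.65 in WT and 0.17, 0.72 and 0.82 in KO cells. With Tfpi2, 2 of the 9 genes were higher in every muscle pair, as 5.58% of all probes tested in muscle were. Of these 2, Tfpi2 was tested in muscle only through its WT HFD group. In muscle over both strains the difference of Tfpi was 0.71 ± 0.18 (adjusted p = 0.15; 95% confidence interval 0.29 to 1.13). Without experiment 1 it was 0.87. The other probes of Tfpi did not move alike, at 0.93 ± 0.25 and 0.04 ± 0.21. In aorta the WT pairs of Tfpi gave -0.08, 0.39 and -0.11 and the KO pairs 0.68, 0.95 and -0.08, a difference of 0.29 ± 0.21 (adjusted p = 0.53) that was 0.29 without experiment 1 as well. The diet response of Tfpi in aorta minus that in muscle was -0.42 ± 0.26 (adjusted p = 0.68).

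Tfpi2 was higher on HFD in all 12 pairs, by 0.23 to 2.22, as 0.949% of all probes were. In aorta its ratios were 1.42, 0.23 and 2.11 in WT and 1.69, 0.75 and 1.61 in KO cells. In muscle they were 2.22, 1.60 and 0.36 in WT and 1.52, 0.58 and 0.90 in KO cells. The probe was well above background on 8 of 12 HFD arrays and on 4 of 12 chow arrays, so that many of these ratios compare a dim signal with one below background. In aorta no group had it well above background on all arrays, and it was not tested there. In muscle only the WT HFD group had it well above background on all 3 arrays, and the probe was tested through that group. Because the probe entered through a group on HFD, the muscle test cannot support a rise on HFD. For the same reason the count of 12 pairs, set beside the share of all probes, cannot support one. The muscle difference was 1.20 ± 0.27 (adjusted p = 0.13), and with normexp background correction it was 0.45 (adjusted p = 0.21). On the muscle arrays of KO mice it was well above background on none of 3 on chow and on 1 of 3 on HFD. Without experiment 1 the muscle difference was 0.86.

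The protein C pathway and the plasminogen activators gave smaller ratios. Over both strains the difference of Thbd was 0.03 ± 0.19 in aorta and 0.25 ± 0.17 in muscle, where 5 of 6 pairs were higher on HFD. Procr gave -0.31 ± 0.18 in aorta, with -0.47, -0.40 and -0.63 in the WT pairs and 0.13, 0.03 and -0.50 in the KO pairs, and -0.17 ± 0.19 in muscle. Procr was thus lower on HFD in all 3 aortic WT pairs (adjusted p = 0.89). Plat gave 0.03 ± 0.24 in aorta and 0.12 ± 0.15 in muscle, with pairs on both sides of 0 in each tissue, and its other probe gave -0.05 ± 0.30 and -0.18 ± 0.16. Without experiment 1 the differences in aorta and muscle were -0.01 and 0.37 for Thbd, -0.38 and -0.37 for Procr, and 0.06 and 0.07 for Plat.

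Plau and Plaur varied widely between experiments, as F3 did. The Plau ratio was -0.66, 2.64 and 0.84 in aortic WT and -0.12, 0.48 and 0.81 in aortic KO cells, while the muscle pairs gave 1.30, -0.32 and -0.71 for WT, then 0.79, -0.05 and -1.16 for KO. The Plaur ratio was -1.07, 0.44 and 1.80 in aortic WT and -0.27, 1.69 and 0.98 in aortic KO cells. Experiment 1 was thus the lowest for both genes in aorta and the highest for Plau in muscle. Over both strains Plaur gave 0.59 ± 0.42 in aorta with its brightest probe and -0.43 ± 0.25 with the other, so that the direction in aorta depended on the probe. Vwf gave -0.33 ± 0.24 in aorta, where the KO pair of experiment 1 stood at -1.44, and 0.14 ± 0.19 in muscle (adjusted p = 0.54 and 0.75). Without experiment 1 the aortic differences were 1.19 for Plau, 1.23 for Plaur and -0.08 for Vwf, and those in muscle -0.56, 0.73 and 0.36.

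The diet response was then compared between the strains, to ask whether the lack of galectin-3 altered it. No gene was called in either tissue (0% of all probes were), and none had ratios of opposite sign in every pair of the 2 strains. In muscle the F3 response was lower in KO than in WT by 1.87 ± 0.69 (95% confidence interval of KO minus WT -3.52 to -0.23; unadjusted p = 0.031, adjusted p = 1). Without experiment 1, which holds the arrays between the strains, it was -1.92 (adjusted p = 1), and without experiment 3, which holds the KO ratio of -1.33, it was -0.86. Without experiment 2 it was -2.85. In aorta the F3 response of KO minus WT was 0.67 ± 0.77 (adjusted p = 1). The response in aorta minus that in muscle was called for none of the 9 genes, with adjusted p of 0.68 to 0.97, and for 0% of all probes.

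The strains were compared on each diet as well. No gene was called in aorta on chow (0.0116% of all probes, 0.00773% higher in KO), in aorta on HFD (0.00387%), or in muscle on chow or HFD (0% in both). Plau had the largest fitted differences of the genes on either diet in aorta and on chow in muscle, whereas in muscle on HFD those of F3 (-0.97) and Tfpi2 (-0.91) were larger than that of Plau (0.77). The pairs of Plau gave 1.25, 3.77 and 0.55 in aorta on chow and 1.79, 1.61 and 0.52 in aorta on HFD. In muscle it was 1.59, 1.36 and 0.04 on chow and 1.08, 1.63 and -0.40 on HFD. Plau was therefore higher on the KO array in 11 of 12 pairs (median 1.30), as 1.34% of all probes were in at least 11. Aortic and muscle pairs of a diet and experiment come from the same mice, so these 12 pairs are not independent. Without the HFD arrays of experiment 1 it was higher in 9 of 10 pairs, with the same median. In the fit its difference was 1.85 ± 0.94 in aorta on chow (95% confidence interval -0.20 to 3.91; adjusted p = 1).

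The other genes were higher on the KO array in 2 (Plat) to 9 (Plaur) of 12 pairs, or of 11 for Procr, and without the HFD arrays of experiment 1 in 2 (Plat) to 7 (Plaur) of 10. F3 had -2.03, 0.50 and -0.58 in aorta on chow and 0.94, 1.12 and 0.65 in muscle on chow. In muscle on HFD it had -0.85, 1.19 and -3.26, the widest spread of any gene in these pairs. Vwf, at -0.56, -0.21 and 0.07 in aorta on HFD, and Thbd, at -0.70, 0.33 and -0.24, had pairs on both sides of 0.

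Within groups, the genes most like F3 across arrays included a fibroblast marker. Taking each array's deviation from its group mean over 24 arrays, the genes most like F3 among 14437 symbols were Pdgfra, a receptor that marks fibroblasts (Pearson r = 0.94), Olfml3 (0.93) and Mmp23 (0.93). Against the mean of the 5 fibroblast markers the r of F3 was 0.90 over both tissues, 0.96 over the 12 muscle arrays and 0.50 over the 12 aortic arrays, and against the 10 endothelial markers it was -0.25, -0.71 and -0.27. In muscle F3 was nearly as like other lists, at 0.92 with macrophage, 0.84 with lymphatic endothelial, 0.82 with skeletal muscle fibre and 0.79 with mesothelial markers. With the macrophage markers F3 gave -0.49 in aorta. Procr gave 0.64 with the fibroblast and 0.70 with the macrophage markers over both tissues. Of the 6 macrophage markers with a probe, 2 were well above background on all aortic arrays and 1 on all muscle arrays. No mesothelial marker was so on all muscle arrays. The values with these lists therefore rest in part on signal near background. Plat gave 0.86 with the fibroblast markers in aorta and 0.67 in muscle, where it gave 0.88 with the adipocyte markers. Against the endothelial markers Plat gave -0.69 in aorta and -0.81 in muscle. Thbd (0.58 and -0.67) and Tfpi (0.59 and -0.46) had opposite signs with the fibroblast markers in aorta and muscle. These are descriptions over arrays that share slides, pools and scaling.

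**Figure D4:**
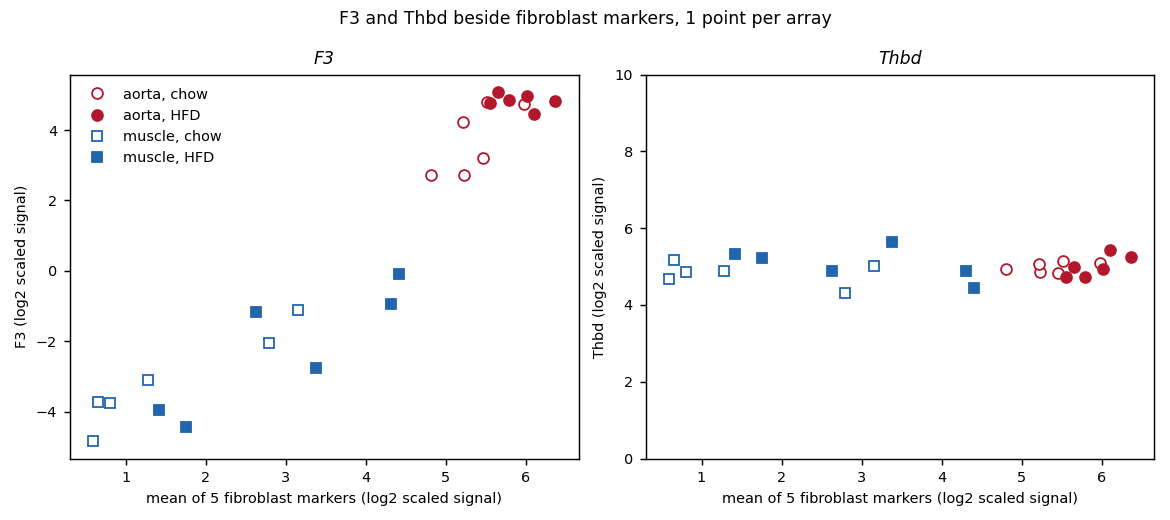
F3 (left) and Thbd (right) on each of the 24 arrays (log2 scaled signal, y axes) against the mean of 5 fibroblast markers on the same array (log2 scaled signal, x axes). Circles are aortic and squares muscle arrays, filled for HFD. F3 climbs with the markers within muscle and the aortic arrays sit at the upper right, while Thbd stays between 4.31 and 5.63 throughout.

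For the other genes the most alike were Pitrm1 (0.87), Tomm5 (0.87) and BC051665 (0.86) for Tfpi, and Krit1 (0.94), Kdm4c (0.92) and Tank (0.90) for the dim Tfpi2. Thbd was most like Rpl6 (0.92), Commd1 (0.87) and Sar1b (0.87), and Procr, over 23 arrays, most like Plac8 (0.86), Pimreg (0.85) and Nuf2 (0.85). Plat was closest to Tgfb3 (0.92), Scpep1 (0.90) and Hexa (0.90), Plau to Slc25a39 (0.92), Atic (0.91) and Sh3pxd2a (0.91), Plaur to Pthlh (0.94), D2hgdh (0.94) and Olfr15 (0.93), and Vwf to Slc2a1 (0.91), Hyal2 (0.91) and Ehbp1l1 (0.91). Only for F3 was one of these genes among the fibroblast markers listed here, and no endothelial marker of the list was among them for any of the 9 genes.

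A wider list of 40 genes of coagulation, anticoagulation, thrombin signalling, fibrinolysis and platelet adhesion was read in the same way. In the comparison of tissues 30 were tested, of which 7 were called higher in aorta, 4 were called lower and 19 were not called. That is 36.7% called, beside 46.1% of all probes (16% higher and 30.1% lower), and their median was -0.18 against -0.27 over all probes. Called higher were Ptgis, the synthase of prostacyclin, by 117-fold (-6.79 to -2.06 in muscle and 1.1 to 3.22 in aorta), and F8, coagulation factor VIII, by 5.63-fold. Both were well above background on 10 of 12 muscle arrays, so these folds rest in part on signal near background. The ranges of F8 overlapped between tissues. The thrombin receptor F2r was higher by 2.43-fold with no overlap (3.56 to 4.98 against 2.42 to 3.55), and Serpine2, an inhibitor of thrombin and plasminogen activators, by 4.51-fold. Serpina5 and Gp1bb were also called. Serpine2 and Serpina5 were well above background on only 7 and 4 muscle arrays and were tested only through aortic groups. Their calls therefore cannot support a higher level in aorta, and the fold of Serpine2 rests in part on muscle signal near background.

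Called lower in aorta were F2rl3, another thrombin receptor, Rab27a, a GTPase of secretory granules, Entpd1, which breaks down ADP, and Serpinc1, antithrombin. In this order they were 9.35-fold, 5.29-fold, 2.84-fold and 1.89-fold higher in muscle. F2rl3 was well above background on 2 of 12 aortic arrays (-8.53 to -5.4) and was tested only through muscle groups. Its call therefore cannot support a lower level in aorta, and its fold rests on aortic signal near background. F13a1, a subunit of factor XIII, and Pros1, protein S, were not called (adjusted p = 0.80 and 0.86).

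On HFD no gene of the wider list was called in either tissue over both strains, of 28 tested in aorta and 25 in muscle. An unadjusted p below 0.05 was found for 10 of 28 in aorta, beside 15.1% of all probes. In muscle it was found for 3 of 25, beside 16.4% of all probes. The share of the list was thus above that of all probes in aorta and below it in muscle. Among those found in aorta, Serpind1 and Serpina5 were well above background on only 4 and 8 aortic arrays. A probe so dim can pass the filter through the diet on which it is high. The comparison of shares therefore cannot support a response of the list to the diet. The HFD minus chow difference of F8 was 1.07 in aorta and 1.54 in muscle (adjusted p = 0.40 and 0.18), and that of F2r was 0.49 and 0.40 (adjusted p = 0.33 and 0.35). F13a1 had values of opposite sign in the tissues, -1.64 in aorta and 1.82 in muscle (adjusted p = 0.12 and 0.21). Pros1 gave -0.24 and 0.03, and Serpine2, tested in aorta alone, gave 0.40. The medians over the list were 0.06 in aorta and 0.23 in muscle, beside 0.01 and -0.01 over all probes.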

How the data were processed

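The 24 arrays hold 8 groups of 3, grouped by the deposited labels. Per the file headers, the processed intensity of each spot was made with Feature Extraction 10.5.1.1 (the labels name 9.1), which subtracted the background and detrended each array. As deposited, the authors' log2 table equals the log2 of these intensities plus 1 constant per array, which gives the arrays of a tissue 1 shared 75th percentile, higher in aorta than in muscle. Here log2 of the processed intensity was taken relative to the array's own 75th percentile over 43379 spots (2390.4 to 5937.9), outlier spots were left out and spots averaged per probe, with no pseudocount. Between 59.5% and 75.7% of spots per array were well above background, and the number of arrays limits the precision. A probe was tested where 1 or more groups had it well above background on all arrays (25865 in aorta, 25682 in muscle, 27387 over both) with limma 3.58.1 in R 4.3.3, with Benjamini-Hochberg adjustment over all of them. The scripts were tested on simulated data.

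In the diet comparisons each HFD array and the chow array of its strain, tissue and experiment formed a pair (block), after the study's methods. Comparisons of strains and of tissues had no block. Arrays of a pair are pools of different mice. Deviations from group means correlated over 0.1 in every experiment for 1 of 4 HFD and chow pairs (muscle WT), 3 of 4 KO and WT pairs and 2 of 4 tissue pairs. The alternatives were normexp background correction (offset 50, on the median intensity, since the mean is not used here), quantile normalization, the deposited table, other filters, other probes of a gene, other blocks, the methods' t-test and leaving out each experiment. Leaving out the HFD arrays of experiment 1 was chosen after seeing the data. The named genes were the 9 genes, 6 fixed genes of the wider list and the 5 of it with the largest called changes, and the 3 most alike symbols of each gene. A gene of the wider list is not reported here. The genes and lists were chosen with earlier results of these data known. Symbols came from RefSeq accessions (27198 of 41174 probes matched).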

Additional observations from a re-analysis of the deposited data

How the results depend on the processing

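In the comparison of tissues 4 of the 9 genes were called, and the count was 3 to 4 when each experiment was left out and 4 under every other alternative run, the replicate block by pool of mice and the slide as a random block included. The gene lost was Procr. The block by pool gave 6.94 for F3 (adjusted p = 8.1e-08) and raised the calls over all probes from 12630 to 15645. The random slide block lowered them to 7715. In the diet, strain and diet by tissue comparisons none of the genes was called under any alternative run, with no replicate block, with a replicate block by experiment or with the methods' t-test included. Calls over all probes moved more: in muscle over both strains from 74 to between 1 (no filter) and 274 (replicate block by experiment), with 51 and no replicate block and 0 when any experiment was left out. In aorta over both strains they moved from 8 to between 5 and 58, again with 0 when any experiment was left out. The other diet comparisons had 0 or 1 calls and reached at most 4 (aorta WT), 7 (aorta KO), 29 (muscle WT), 5 (muscle KO) and 25 (diet by tissue). The comparisons of strains had 0 to 3 calls and reached at most 8, and the replicate block changed no call of a gene described here. The count of gene, strain and tissue combinations with a ratio past 1 in all 3 experiments was 0, it was 1 with quantile normalization (F3 in muscle WT), and it was 0 to 2 when each experiment was left out (F3 in muscle WT without experiment 2, F3 in aorta KO and Tfpi2 in muscle WT without experiment 3). The causes were not tested. The wider list had 11 calls between tissues, and 8 to 16 under the alternatives. Dim signal limits Tfpi2 most.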

Other observations

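Among the 36 pairs of the 9 genes, the deviations from group means were most alike for F3 and Procr (Pearson r = 0.68 over 23 arrays), Tfpi and Thbd (0.67 over 24 arrays) and Plaur and Vwf (0.57), and most opposed for Tfpi2 and Plau (-0.76). The mean of 5 adipocyte markers was lower on HFD in all 6 aortic pairs, at -6.18 to -2.58 on the log2 scale, while the mean of 5 smooth muscle markers ran from -0.01 to 1.59 there. No marker of either list was called, and how these cell types bear on the 9 genes was not tested.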
